A study of Mus musculus with 27 samples.

Results

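Skull libraries taken 24 h after UVB light on the cranium were compared with skull libraries taken 0.5 h after it, 3 against 3, out of 27 mouse libraries in the series. All 37095 gene symbols of the count table were considered, and the members are the libraries whose labels give skull tissue at either of those times. The series measured poly(A) RNA in the brain, the meninges and the skullcap after cranial UVB photobiomodulation, the use of light to change tissue function. In the 0.5 h and 24 h groups UVB at 311 nm and 2 mW was directed at the interparietal bone, the unpaired bone at the rear of the skullcap. The 3 skull control libraries came from mice not treated with UVB, and they entered the fit and serve as a reference level. Per the labels the skullcap was rinsed in cold PBS, the meninges were scraped off it and RNA was extracted with TRIzol. Strain, sex, age, hour of collection, sham handling, pooling and whether each library is a separate mouse are not stated in the labels used here, so p-values measure the spread between these libraries only. The hour of the day cannot be told apart from the time after light.

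The skullcap is a flat bone built of mineralised plates with marrow between them, so its RNA comes from osteoblasts and osteocytes, periosteal fibroblasts and vessels, and from blood-forming cells of the marrow. UVB damages DNA directly and penetrates tissue poorly, and skin that receives it answers with p53 targets, inflammatory mediators and repair genes. In most tissues a transcriptional clock also runs, in which ARNTL with CLOCK or NPAS2 drives the Per, Cry and Nr1d genes, whose products then shut it down.

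The 6 libraries held 15960329 to 17838731 counts each, and all 27 columns of the count table matched their labels. Bone and marrow genes were abundant. The summed level of 16 osteoblast genes was 118000 to 166000 CPM at 0.5 h and 119000 to 149000 at 24 h. CPM are counts relative to the library total. Sums over a list and levels compared between tissues use plain totals, and levels of single genes in skull alone use scaled totals. Genes of neighbouring tissue were present. The sum of 12 neuron genes was 52.9 to 62.8 CPM at 0.5 h and 74.0 to 94.7 at 24 h, that of 7 astrocyte genes 595 to 655 and 596 to 634, and that of 16 skeletal muscle genes 2220 to 7510 and 1670 to 3480. The epidermal keratins Krt14 and Krt17 and the melanocyte genes Mlana and Slc45a2 had no count in any of the 6 libraries. Haemoglobin genes took 0.487%, 0.574% and 0.778% of counts at 0.5 h and 0.306%, 0.427% and 0.284% at 24 h. In bulk RNA, fewer cells of a type and less RNA per cell cannot be told apart.

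Of 17426 genes tested with edgeR's quasi-likelihood test, 2811 (16.1%) differed between 24 h and 0.5 h at a Benjamini-Hochberg adjusted p under 0.05, the threshold behind "called", "rose" and "fell" throughout. The 1462 higher genes were 8.39% of those tested and the 1349 lower genes 7.74%. These 2 shares are the reference for every count below of list members called between 24 h and 0.5 h in skull. When GC content and transcript length were corrected for, the split was 1938 higher and 1108 lower. Most changes were modest, with a median absolute log2 fold change of 0.575 among called genes, and the large ones leaned downward: 178 genes rose and 439 fell more than 2-fold, and 43 rose and 104 fell more than 4-fold. The 3 libraries of each time did not overlap for 37.6% of genes (19.5% higher and 18% lower at 24 h), the reference for groups without overlap below. Leaving out 1 library lowered the number called to 1428 without the first 24 h library, 1491 without the third, 1676 without the second 0.5 h library and 1759 without the first 0.5 h library. No gene called with and without any 1 library changed sign. Among the 12 genes that rose most, the second 24 h library had the lowest level of its group in 10.

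**Figure D1:**
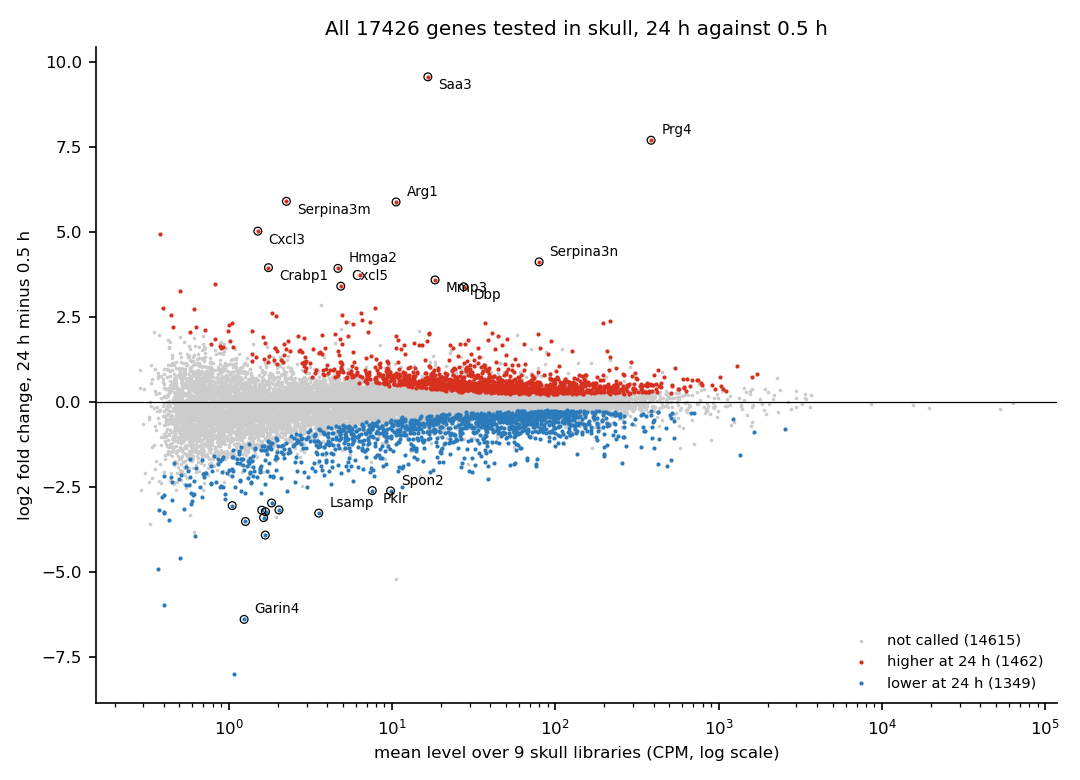
Each point is 1 of 17426 genes, with its mean level over the 9 skull libraries on the x axis (CPM, log scale) and its log2 fold change, 24 h minus 0.5 h, on the y axis. Circles mark 11 of the genes that rose most, each with its name, and 12 of those that fell most, 4 of them with a name; the value of Saa3, with 3 counts at 0.5 h, and that of Garin4, with 0 counts at 24 h, depend on the prior count of the fit.

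The clock genes moved as 2 opposed sets. Arntl and Npas2, the activator and a partner of it, fell, while Per2, Per3, Ciart and Nr1d2, which encode repressors, and the PAR-domain output factors Dbp, Tef and Hlf rose. Of 19 clock genes tested, 8 rose and 3 fell, against 8.39% and 7.74% of all genes, and 8 did not pass. The median log2 fold change of the 19 was 0.40, against -3.02e-05 for all genes tested. Because the labels give no hour of collection, a change with the time of day and a change with time after light cannot be told apart here.

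Arntl (also called Bmal1), the core activator, was at 50.3, 52.2 and 41.5 CPM at 0.5 h and 10.01, 9.18 and 10.8 CPM at 24 h (log2 fold change -2.26 ± 0.12, adjusted p = 1.94e-06, here and below ± SE). The groups were far apart, and the controls, at 53.4, 58.6 and 62.2 CPM, lay above both. Npas2, which can replace CLOCK as its partner, was at 71.1, 69.5 and 56.2 CPM at 0.5 h and 15.1, 21.2 and 18.2 CPM at 24 h (log2 fold change -1.85 ± 0.16, adjusted p = 0.000113). All 24 h libraries were again below all 0.5 h libraries, whereas Clock itself, with a log2 fold change of -0.39 ± 0.15 (adjusted p = 0.112), did not pass. Its adjusted p was 0.0171 with all 27 libraries and 0.0371 without the third 0.5 h library.

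On the repressor side, Per3 was at 21.8, 20.9 and 20.6 CPM at 0.5 h and 102, 88.4 and 67.9 CPM at 24 h (log2 fold change 2.03 ± 0.17, adjusted p = 8.94e-05). Per2 was at 11.9, 12.1 and 14.01 CPM at 0.5 h and 44.6, 38.1 and 39.3 CPM at 24 h (log2 fold change 1.68 ± 0.14, adjusted p = 6e-05). Ciart, which encodes a repressor of CLOCK-ARNTL, went from 1.08, 2.01 and 2.85 CPM to 12.05, 8.99 and 9.64 CPM (log2 fold change 2.36 ± 0.29, adjusted p = 0.000375). The groups did not overlap for any of these, nor for Nr1d2, a REV-ERB receptor that represses Arntl (log2 fold change 1.58 ± 0.16, adjusted p = 0.0003), or Bhlhe41, an E-box repressor (log2 fold change 1.68 ± 0.18, adjusted p = 0.000187). Per1, Cry1, Cry2 and Nr1d1 did not pass; Per1, which is also an early response gene, had a log2 fold change of -0.28 ± 0.19 (adjusted p = 0.35). For Nr1d1 the adjusted p of 0.127 became 0.0349 by limma-voom and 0.0399 without the second 24 h library.

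Dbp changed most of the clock outputs. It was at 4.32, 6.07 and 10.04 CPM at 0.5 h and 86.4, 62.2 and 68.1 CPM at 24 h (log2 fold change 3.40 ± 0.29, adjusted p = 0.00022). Tef was at 53.98, 47.7 and 53.5 CPM at 0.5 h and 222, 166 and 152 CPM at 24 h (log2 fold change 1.80 ± 0.13, adjusted p = 3.07e-05). Hlf was at 6.84, 6.78 and 11.9 CPM at 0.5 h and 33.2, 23.5 and 25.98 CPM at 24 h (log2 fold change 1.69 ± 0.28, adjusted p = 0.0034). No 24 h library overlapped with a 0.5 h library for these 3 factors, which bind the D-box. Nfil3, which represses through the same element, fell from 33.6, 27.7 and 36.7 CPM to 17.5, 17.3 and 24.03 CPM (log2 fold change -0.74 ± 0.16, adjusted p = 0.00932). Its control level was higher than either, at 77.4, 84.6 and 102 CPM. Dbp shares 18% of its exon bases with Sphk2 on the opposite strand and Bhlhe41 19% with Gm43909, and the strand setting of the counting is not given in the sources used here.

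**Figure D2:**
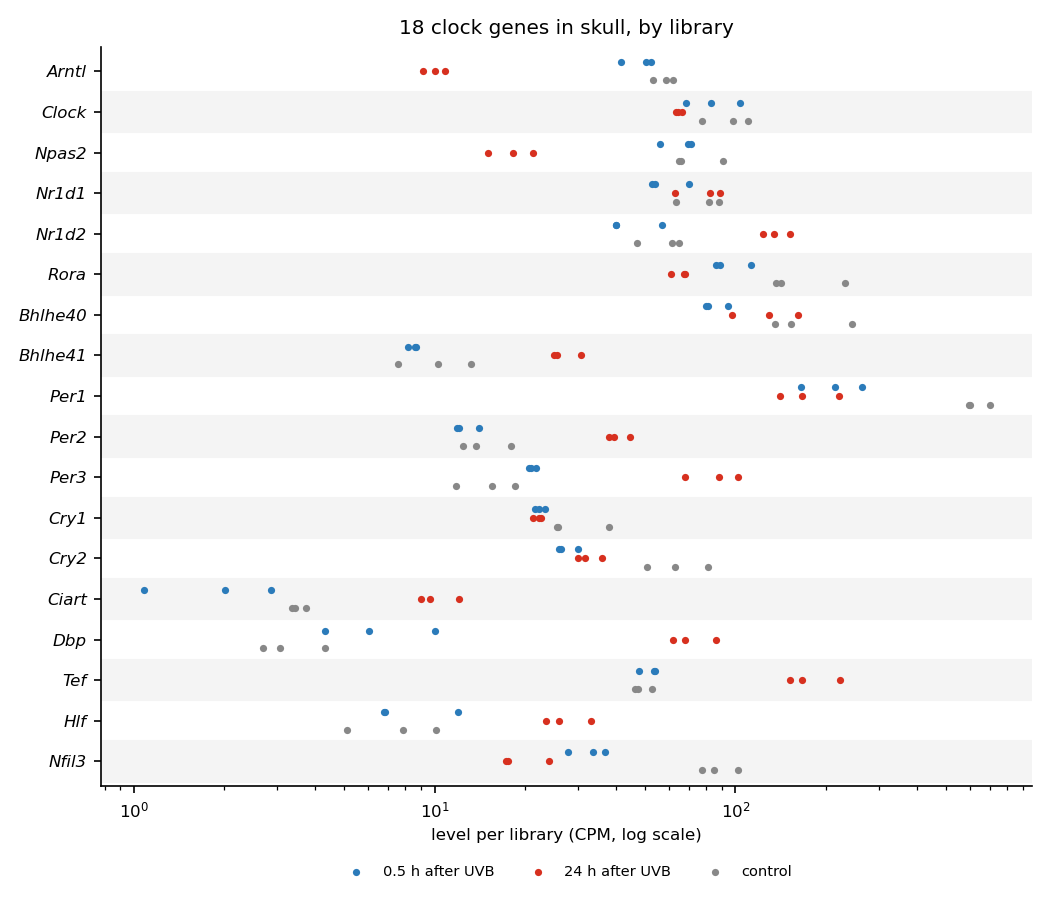
Level of each of 18 clock genes (CPM, log scale) in the 3 libraries of each skull group, 1 point per library. Arntl and Npas2 are lower in every 24 h library than in every 0.5 h library, and Nr1d2, Bhlhe41, Per2, Per3, Ciart, Dbp, Tef and Hlf are higher.

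Promoter windows from RefSeq (GRCm38.p6) were available for 16 of the 19 clock genes. The 250 bases before each start were searched on both strands for the E-box CACGTG, bound by ARNTL with CLOCK or NPAS2, and the D-box TTATGTAA, bound by DBP, TEF, HLF and NFIL3. The E-box is in 5 of the 16 (Bhlhe41, Per1, Cry1, Ciart and Tef) against 6.86% of all 27025 genes with a window, and the D-box is in 1 (Per3), against 0.977% of all genes. The 4 windows below belong to genes that rose and are trimmed to the stretch around the motif, 5′ to 3′ on the gene's strand, with the motif in capitals.
Ciart, E-boxes 116, 58 and 44 bases before the start, chr3:95882252-95882374, minus strand: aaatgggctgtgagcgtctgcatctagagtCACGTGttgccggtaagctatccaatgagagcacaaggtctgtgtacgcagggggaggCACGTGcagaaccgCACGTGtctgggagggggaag
Tef, E-box 138 bases before the start, chr15:81811246-81811311, plus strand: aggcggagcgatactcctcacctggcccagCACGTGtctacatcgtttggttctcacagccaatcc
Bhlhe41, E-box 153 bases before the start, chr6:145865559-145865603, minus strand: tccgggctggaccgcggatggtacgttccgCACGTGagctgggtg
Per3, D-boxes 205 and 158 bases before the start, chr4:151044786-151044900, minus strand: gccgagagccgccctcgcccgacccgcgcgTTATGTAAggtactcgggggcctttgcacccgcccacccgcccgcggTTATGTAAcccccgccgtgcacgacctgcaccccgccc
These motifs are letters found in a window and not measured binding sites. Per1 and Cry1 hold the E-box too and did not pass the test.

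The largest rises were in genes of acute inflammation, tissue repair and matrix turnover. Prg4 (chr1:150449412-150466165, minus strand) encodes lubricin, the lubricating glycoprotein of joint and tendon surfaces, and was at 9.24, 4.89 and 2.43 CPM at 0.5 h and 1163, 809 and 1468 CPM at 24 h (log2 fold change 7.71 ± 0.71, adjusted p = 0.00137). The 3 controls, at 3.09, 10.8 and 4.35 CPM, overlapped with the 0.5 h libraries and were far below every 24 h library. In these and later coordinates, positions are of GENCODE M21 genes on GRCm38 (mm10). Saa3 (chr7:46711998-46715700, minus strand), an acute-phase serum amyloid A made by macrophages and stromal cells, had 3 counts over the 3 libraries at 0.5 h and 2472 at 24 h, a ratio of 859 (95% exact interval 293 to 4170, counting error only; adjusted p = 7.21e-05). Its levels at 24 h were 39.9, 30.8 and 77.02 CPM, and in the controls 0.357, 0.399 and 0.622 CPM.

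Arg1 (chr10:24915221-24927484, minus strand), arginase, a marker of alternatively activated macrophages, was at 0.480, 0.295 and 0.740 CPM at 0.5 h and 23.6, 19.6 and 49.3 CPM at 24 h (log2 fold change 5.89 ± 0.45, adjusted p = 9.62e-05). Its groups were far apart, and the third 24 h library was the highest, as it was for 8 of the 12 genes that rose most. Serpina3n (chr12:104406729-104414329, plus strand), a secreted inhibitor of serine proteases, was at 13.6, 10.3 and 11.3 CPM at 0.5 h and 221, 111 and 283 CPM at 24 h (log2 fold change 4.13 ± 0.49, adjusted p = 0.00305). Serpina3m, a close paralog whose reads may be shared with it, had the same direction (log2 fold change 5.91 ± 0.68, adjusted p = 0.000314). Mmp3 (chr9:7445822-7455975, plus strand), stromelysin, a matrix protease, was at 5.82, 3.89 and 1.96 CPM at 0.5 h and 41.9, 38.4 and 60.2 CPM at 24 h (log2 fold change 3.60 ± 0.34, adjusted p = 0.000365). No 24 h library was near the 0.5 h range of Mmp3 or of either serpin.

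Hmga2, a chromatin protein of fetal and growing tissue, was at 0.960, 0 and 1.37 CPM at 0.5 h and 15.3, 9.91 and 11.5 CPM at 24 h (log2 fold change 3.94 ± 0.72, adjusted p = 0.00896). Crabp1, a carrier of retinoic acid, was at 0.360, 0.118 and 0.423 CPM at 0.5 h and 6.504, 4.895 and 3.05 CPM at 24 h (log2 fold change 3.96 ± 0.47, adjusted p = 0.00032). Both were barely counted at 0.5 h and present in every 24 h library.

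The 12 largest falls were in genes of low level. Spon2 (chr5:33198184-33218455, minus strand), a secreted matrix protein of the spondin family, was at 17.3, 10.8 and 12.5 CPM at 0.5 h and 1.87, 2.26 and 2.5 CPM at 24 h (log2 fold change -2.61 ± 0.26, adjusted p = 0.000114). Pklr, the pyruvate kinase of liver and red cells, was at 12.7, 10.97 and 17.4 CPM at 0.5 h and 1.47, 3.98 and 1.34 CPM at 24 h (log2 fold change -2.60 ± 0.38, adjusted p = 0.00182). The groups were separate in both, and Pklr shares 22% of its exon bases with Hcn3. Lsamp, an adhesion molecule of neurons, was at 7.14, 4.48 and 5.87 CPM at 0.5 h and 0.170, 0.979 and 0.671 CPM at 24 h (log2 fold change -3.27 ± 0.41, adjusted p = 0.000425). Spock3, a brain proteoglycan, was at 3.12, 1.95 and 4.23 CPM at 0.5 h and 0.226, 0.428 and 0.366 CPM at 24 h (log2 fold change -3.17 ± 0.46, adjusted p = 0.00114). Aqp4, the water channel of astrocytes, was at 5.22, 1.297 and 3.38 CPM at 0.5 h and 0.509, 0.551 and 0.183 CPM at 24 h (log2 fold change -2.97 ± 0.61, adjusted p = 0.00738). Of the lists, 3 of 12 neuron genes rose and 1 fell, and 1 of 7 astrocyte genes, Aqp4, fell. Beside them, the summed neuron genes were higher at 24 h (74.0 to 94.7 against 52.9 to 62.8 CPM) and the summed astrocyte genes overlapped (596 to 634 against 595 to 655 CPM).

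Kcnk7, a potassium channel subunit (log2 fold change -3.22 ± 0.50, adjusted p = 0.0015), and Aldh1a7, an aldehyde dehydrogenase (log2 fold change -3.40 ± 0.52, adjusted p = 0.00145), also fell. The calls of the remaining 5 ended when single libraries were left out. Garin4 had 32 counts over the 0.5 h libraries and 0 at 24 h, at least 10.2-fold lower when the 24 h group is set to a floor of 3 counts in all, and its adjusted p of 0.0184 became 0.0564 without the first and 0.0522 without the third 24 h library. Mettl21c, a muscle methyltransferase (log2 fold change -3.51 ± 0.87, adjusted p = 0.02), missed the threshold without the first 0.5 h library (0.0689) or the first 24 h library (0.0888). Beside it and Actc1, the summed muscle genes ran from 2220 to 7510 CPM at 0.5 h and from 1670 to 3480 CPM at 24 h, and their part in the result was not tested. Actc1, cardiac actin (log2 fold change -3.91 ± 1.08, adjusted p = 0.0395), missed it without any 1 of 7 libraries: 0.0936 and 0.0677 without the first and the third 0.5 h libraries, 0.141 and 0.113 without the first and second 24 h libraries, and 0.0558, 0.0697 and 0.0542 without each control. It also missed it with no filter (0.138), by limma-voom (0.127) and with 6 (0.0846) or all 27 (0.0672) libraries. Fmn2, a formin (log2 fold change -3.04 ± 0.85, adjusted p = 0.0323), missed it without the first (0.0519) or the third (0.131) 0.5 h library, or the first (0.088) or the third (0.124) 24 h library. The antibody segment Ighv1-69 (log2 fold change -3.18 ± 0.75, adjusted p = 0.0166) missed it without the first 0.5 h library (0.0632) or any 24 h library (0.0609, 0.0522 and 0.0772). The other 19 of the 24 genes kept their call without any one of the 9 libraries.

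**Figure D3:**
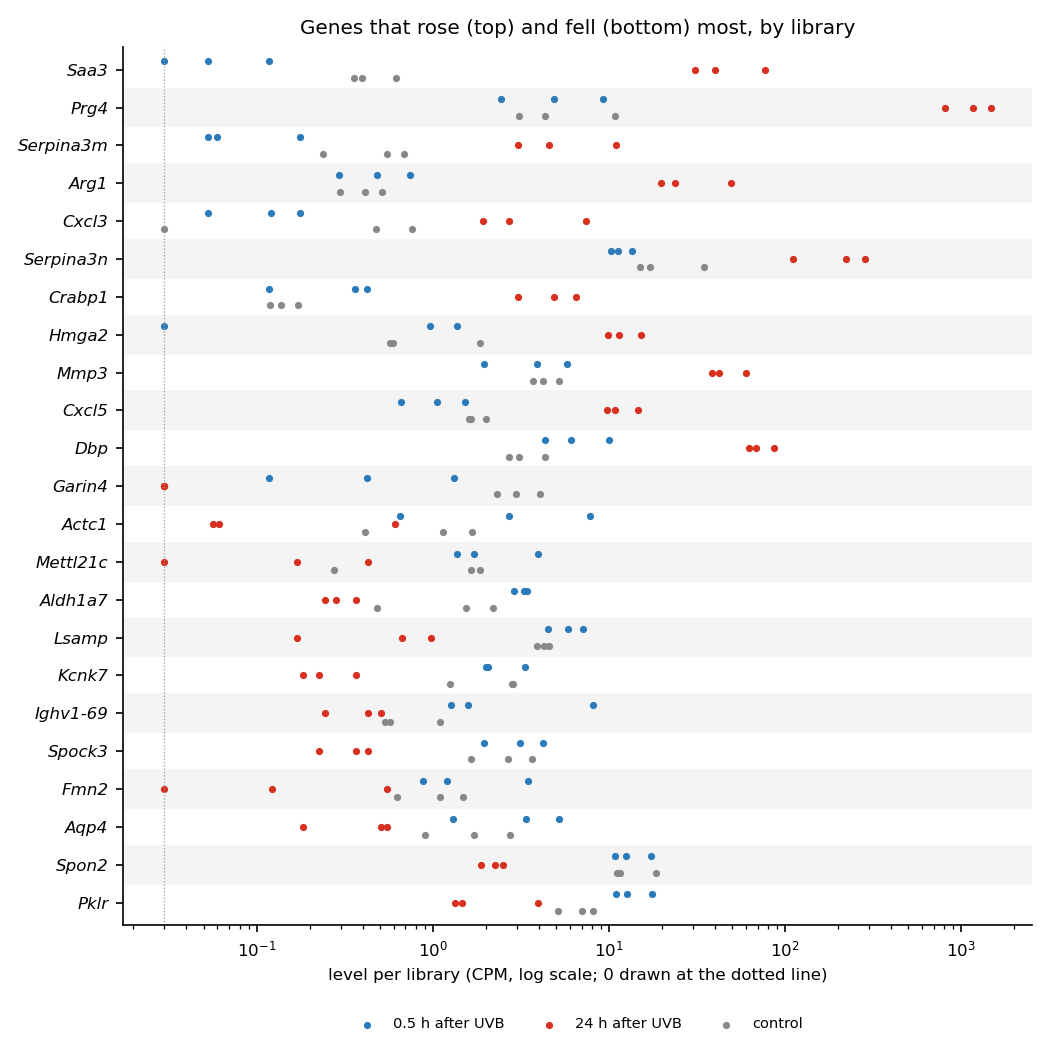
Level of 11 genes among those that rose most (top) and the 12 that fell most (bottom), in CPM on a log scale, 1 point per skull library, with a level of 0 drawn at the dotted line. For the 11 risen genes the controls lie near the 0.5 h libraries and apart from the 24 h libraries.

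Chemokines that attract neutrophils and monocytes rose in part. Of 16 tested, 6 were higher and 1 was lower, against 8.39% and 7.74% of all genes, and their median log2 fold change was 0.61. Cxcl5, a neutrophil attractant, was at 0.660, 1.06 and 1.53 CPM at 0.5 h and 10.8, 9.73 and 14.7 CPM at 24 h (log2 fold change 3.41 ± 0.29, adjusted p = 6e-05). Cxcl3 was at 0.120, 0.177 and 0.0529 CPM at 0.5 h and 1.92, 2.69 and 7.38 CPM at 24 h (log2 fold change 5.03 ± 0.93, adjusted p = 0.00566). The monocyte attractant Ccl7 was at 2.04, 1.95 and 3.59 CPM at 0.5 h and 17.1, 9.79 and 24.9 CPM at 24 h (log2 fold change 2.76 ± 0.34, adjusted p = 0.000669). All 24 h libraries were above all 0.5 h libraries for these, as for Ccl2 (log2 fold change 2.37 ± 0.31, adjusted p = 0.00066). The other 2 higher genes, Ccl4 (adjusted p = 0.0381) and the chemokine receptor Ccr1 (0.0415), lost their call without any one of 5 and of 7 of the 9 libraries, with an adjusted p of up to 0.16 and 0.157. Ccl6, the 1 lower gene, was not called without the second or the third 0.5 h library, any 24 h library or the second control. With all 27 libraries in 1 fit 3 were higher, and Ccl2 had an adjusted p of 0.138. Of 13 acute-phase genes tested, Saa3 and Serpina3n were the only 2 called, and the median was -0.31. Saa1, Saa2 and Orm2 were not tested, and Serpina3m is not in this list.

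Genes of neutrophils themselves were nearly all below the threshold. Of 36 tested 1 was called, Il1b, which was higher, and 26 had negative fold changes, with a median of -0.27. The secondary and tertiary granule genes, such as Ngp (log2 fold change -0.69 ± 0.27, adjusted p = 0.12) and Camp (log2 fold change -0.71 ± 0.27, adjusted p = 0.121), summed to 6040 to 9080 CPM at 0.5 h and 4310 to 6010 at 24 h. None of their 13 members passed by edgeR, 5 had an unadjusted p under 0.05, and DESeq2 and limma-voom called 2 each. Ngp passed (0.0408) without the third control.

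Of 22 targets and feedback genes of NF-kB, the transcription factor of inflammation, 4 rose and 5 fell, against 8.39% and 7.74% of all genes. Their median was -0.00317. Il1b, a fever cytokine, was at 16.2, 12.4 and 16.8 CPM at 0.5 h and 29.2, 23.9 and 35.8 CPM at 24 h (log2 fold change 0.97 ± 0.18, adjusted p = 0.00427). Il6, a cytokine of the acute phase, was at 0.720, 0.472 and 1.59 CPM at 0.5 h and 3.11, 4.04 and 9.76 CPM at 24 h (log2 fold change 2.57 ± 0.56, adjusted p = 0.0147). Both groups were separate, but the controls, at 25.5, 34.1 and 24.8 CPM for Il1b and 6.36, 6.78 and 11.8 CPM for Il6, overlapped with the 24 h libraries. Each time against control gives for Il6 -3.13, adjusted p = 0.0178 at 0.5 h and -0.56, adjusted p = 0.453 at 24 h; these comparisons share the control libraries with each other and each shares its UVB libraries with the main one. Il6 missed the threshold without the first (0.0653) or second (0.055) 0.5 h library. Tnfaip3 (A20), an inhibitor of NF-kB, fell from 37.4, 36.2 and 46.7 CPM to 16.8, 21.9 and 26.1 CPM (log2 fold change -0.89 ± 0.19, adjusted p = 0.0107), from control levels of 71.4, 101 and 72.6 CPM. The count of rising targets was 2 without the first or second 0.5 h library, and that of falling ones was 2 without the second or the third 0.5 h or the second 24 h library and 1 without the first 24 h library. With all 27 libraries 1 rose and 1 fell, and Il1b did not pass (0.221).

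Interferon-stimulated genes had positive fold changes in 28 of 29 cases, with a median of 1.13, but none passed by edgeR as fitted here and no gene separated the groups. With an unadjusted p under 0.05 there were 2, and DESeq2 called 2 and limma-voom 7. Ifitm3, an antiviral membrane protein, was at 74.7, 76.2 and 161 CPM at 0.5 h and 229, 157 and 359 CPM at 24 h (log2 fold change 1.26 ± 0.45, adjusted p = 0.112). Its adjusted p was 0.0345 by edgeR with robust off, 0.0254 with the replicate block, 0.0424 by DESeq2 and 0.00665 by limma-voom. The third library of each time was the highest of its group, and the summed list ran from 535 to 1890 CPM at 0.5 h, 880 to 3120 at 24 h and 1560 to 3540 in controls.

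Genes that glucocorticoid hormone induces were lower at 24 h. Of 19 tested, 10 fell, against 7.74% of all genes, and the median was -0.70. Zbtb16, a zinc finger factor, was at 54.2, 41.8 and 28.8 CPM at 0.5 h and 11.7, 10.2 and 11.2 CPM at 24 h (log2 fold change -1.91 ± 0.28, adjusted p = 0.0027), and Tsc22d3 (GILZ), an anti-inflammatory target of the receptor, at 441, 366 and 428 CPM at 0.5 h and 230.3, 232 and 286 CPM at 24 h (log2 fold change -0.72 ± 0.12, adjusted p = 0.00219). Ddit4, an inhibitor of mTORC1, went from 389, 355 and 371 CPM to 136, 164 and 241 CPM (log2 fold change -1.04 ± 0.19, adjusted p = 0.00651), and Sesn1 from 88.1, 82.5 and 92.7 CPM to 49.4, 45.2 and 48.7 CPM (log2 fold change -0.88 ± 0.08, adjusted p = 8.11e-05). The groups did not overlap in these 4 genes. The controls, at 678, 517 and 682 CPM for Ddit4 and 145, 136 and 149.8 CPM for Sesn1, were higher than both times.

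The early response genes of the AP-1, Egr and Nr4a families, which answer stimuli within minutes, fell too. Of 28 tested, 14 were lower and 1 was higher, against 7.74% and 8.39% of all genes, with a median of -0.72. The summed list was 4900 to 5690 CPM at 0.5 h, 1620 to 3250 at 24 h and 4730 to 5350 in controls. Jun, an AP-1 subunit, was at 418, 379 and 430.0 CPM at 0.5 h and 151, 121 and 224 CPM at 24 h (log2 fold change -1.31 ± 0.19, adjusted p = 0.00242). Zfp36, which destabilises inflammatory messages, was at 228, 252 and 302 CPM at 0.5 h and 86.2, 57.3 and 119 CPM at 24 h (log2 fold change -1.57 ± 0.25, adjusted p = 0.00476). For Jun the 0.5 h libraries overlapped with the controls, 429, 385 and 463 CPM, and all 24 h libraries lay below. Without the first 24 h library 9 were lower. The 1 higher gene, Fosl1, was lost when any library other than the second 24 h library was left out.

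A list of FoxO and insulin-sensing genes had 8 of 15 members lower (median -0.41), against 7.74% of all genes. FoxO factors are active when insulin signalling is low. Txnip, an inhibitor of thioredoxin and of glucose uptake, was at 434, 446 and 507 CPM at 0.5 h and 196, 222 and 231 CPM at 24 h (log2 fold change -1.10 ± 0.10, adjusted p = 9.17e-05). Foxo3 itself was at 199, 197 and 188 CPM at 0.5 h and 92.98, 112 and 107 CPM at 24 h (log2 fold change -0.90 ± 0.09, adjusted p = 0.000113). Arrdc4, a paralog of Txnip, also fell (log2 fold change -0.95 ± 0.10, adjusted p = 0.000187). The groups were separate in all of them, and Txnip shares 19.4% of its exon bases with Gm15441 on the opposite strand. Of 11 CCN and YAP targets 3 fell and 1 rose: Ccn1, a matricellular protein, went from 1474, 1290.1 and 1221 CPM to 403, 346 and 619 CPM (log2 fold change -1.54 ± 0.20, adjusted p = 0.000821), with controls at 2298, 1946 and 2526 CPM, and Ccn4 rose (log2 fold change 0.79 ± 0.15, adjusted p = 0.00712). The lower count was 1 without the first 0.5 h library, and the higher count was 2 without the third 0.5 h library or the second or the third control.

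Red cell genes fell together. Of 26 erythroid and heme synthesis genes tested, all had negative fold changes and 23 were called, with a median of -1.08. The summed erythroid genes were 7170 to 11100 CPM at 0.5 h, 3690 to 5790 at 24 h and 5880 to 6710 in controls. For heme synthesis the sums were 847 to 1210, 447 to 644 and 602 to 706 CPM. In both lists the 0.5 h libraries thus lay above the controls, and for heme synthesis the 24 h libraries overlapped with them. All 8 enzymes of heme synthesis were lower: Uros was at 28.6, 33.97 and 36.4 CPM at 0.5 h and 13.5, 17.7 and 19.4 CPM at 24 h (log2 fold change -0.97 ± 0.14, adjusted p = 0.00114). Cpox was at 117, 132 and 149.9 CPM at 0.5 h and 51.01, 79.3 and 52.2 CPM at 24 h (log2 fold change -1.13 ± 0.16, adjusted p = 0.00164). Fech, which inserts the iron, was at 173, 187 and 219.8 CPM at 0.5 h and 105, 139 and 112 CPM at 24 h (log2 fold change -0.71 ± 0.11, adjusted p = 0.00182). No 24 h library reached the lowest 0.5 h library in these 3, and the controls of Cpox, at 84.8, 83.02 and 76.3 CPM, lay below its 0.5 h libraries. Among the erythroid genes, Sptb, red cell spectrin, was at 196, 187 and 255 CPM at 0.5 h and 58.4, 102 and 60.7 CPM at 24 h (log2 fold change -1.53 ± 0.23, adjusted p = 0.00373). Car2, carbonic anhydrase, was at 347, 385 and 481 CPM at 0.5 h and 81.5, 178 and 89.3 CPM at 24 h (log2 fold change -1.80 ± 0.31, adjusted p = 0.0091). The second 24 h library was the highest of its group in both. The erythroid count of 15 was 7 without the first or the third 24 h library, 9 with no filter on low counts and 8 with the 6 libraries alone, while that of the heme enzymes did not move by more than 1.5 times with any library left out. The haemoglobin genes of the list have near-identical copies and are uncertain one by one. How far a change in red cell content bears on other results was not tested.

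B cell precursor genes fell as well, 10 of 16 (median -1.17). Ebf1, a factor that commits cells to the B lineage, was at 62.3, 63.5 and 70.8 CPM at 0.5 h and 38.01, 36.5 and 33.4 CPM at 24 h (log2 fold change -0.87 ± 0.09, adjusted p = 0.000114). Vpreb3, a pre-B cell receptor component, was at 14.1, 18.4 and 20.6 CPM at 0.5 h and 4.64, 6.36 and 3.903 CPM at 24 h (log2 fold change -1.83 ± 0.22, adjusted p = 0.000359). Every 24 h library was below every 0.5 h library in both. The count was 5 without the second 0.5 h library, 4 without the third, 5 without the first or the third 24 h library and 6 with no filter. Of 12 mature B cell genes 3 fell, among them Ighm, the heavy chain of IgM, at 352, 269 and 317 CPM at 0.5 h and 132, 179.6 and 130.3 CPM at 24 h (log2 fold change -1.08 ± 0.15, adjusted p = 0.00136); the count was 7 without the second 24 h library and 5 without the second or the third control, and 1 with all 27 libraries. Of 6 plasma cell genes 1 fell, 1 rose and 4 did not pass. The lower gene, Irf4, a factor of plasma cells and activated lymphocytes, went from 23.4, 24 and 27.2 CPM to 4.02, 9.55 and 4.39 CPM (log2 fold change -2.06 ± 0.29, adjusted p = 0.00165), and the higher 1, Sdc1, is a surface proteoglycan of plasma cells and epithelia (log2 fold change 0.83 ± 0.09, adjusted p = 0.000245).

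MHC class II presentation genes were lower in 7 of 11 cases (median -0.68). Cd74, the invariant chain, was at 258, 204 and 302 CPM at 0.5 h and 130.1, 131 and 132 CPM at 24 h (log2 fold change -0.96 ± 0.16, adjusted p = 0.0036), with controls at 336, 308 and 225 CPM, and H2-Ab1, a class II beta chain, fell alongside (log2 fold change -0.90 ± 0.17, adjusted p = 0.00686). Without the third 24 h library 4 were lower. In the fit of all 27 libraries 1 was, and Cd74 (0.219) and H2-Ab1 (0.181) did not pass. Of 16 macrophage genes, Mertk (log2 fold change -0.63 ± 0.10, adjusted p = 0.00214) and Cd163 (log2 fold change -0.80 ± 0.16, adjusted p = 0.0069), both receptors of tissue macrophages, were lower. The other 14 did not pass, and 5 were lower without the third control. The share of all genes called lower was 7.74%. Of 11 monocyte genes 2 were lower and 9 did not pass, with a median of -0.02, while the summed level was 2400 to 2510 CPM at 0.5 h and 2620 to 2740 at 24 h. Of the 2, Cx3cr1, the fractalkine receptor of monocytes, was at 30.2, 33.4 and 36 CPM at 0.5 h and 12.1, 17.1 and 15.4 CPM at 24 h (log2 fold change -1.16 ± 0.18, adjusted p = 0.00198). None of 12 megakaryocyte genes passed by edgeR, 1 had an unadjusted p under 0.05, and DESeq2 and limma-voom called 1 each.

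**Figure D4:**
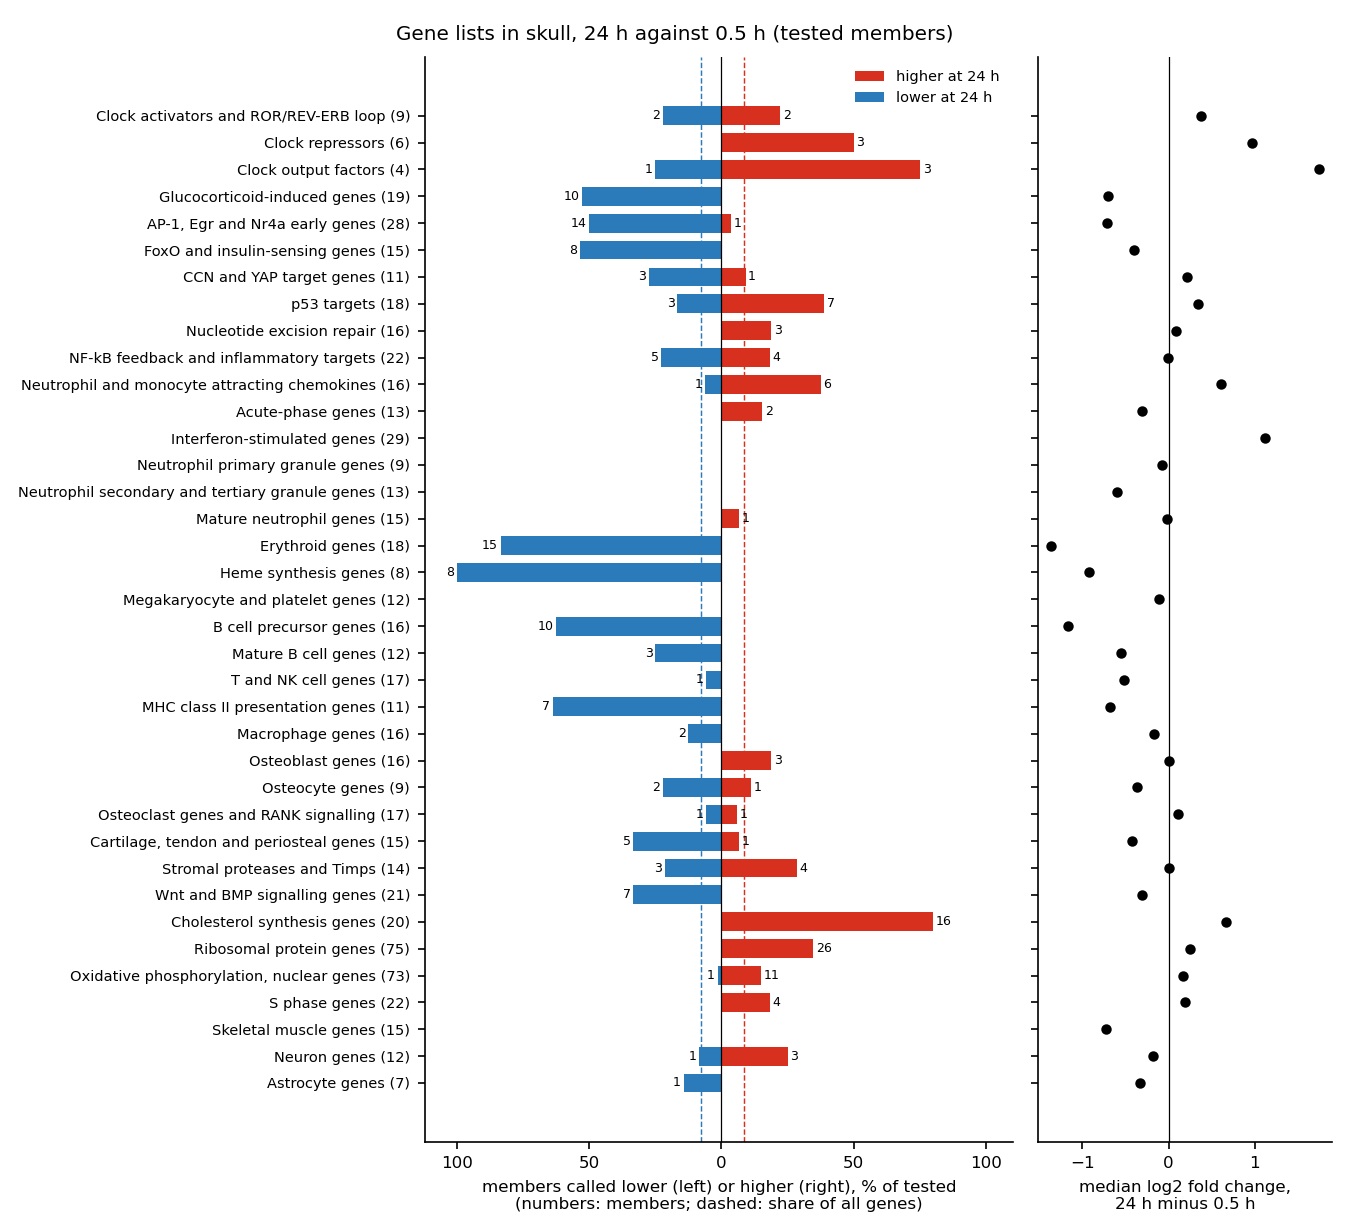
Left, the share of tested members of each gene list called lower (left) or higher (right) at 24 h, with the number of members called at each bar, the number tested in brackets and dashed lines at the shares of all genes (7.74% lower, 8.39% higher). Right, the median log2 fold change of the list. Clock output factors (3 higher and 1 lower of 4), heme synthesis, erythroid and cholesterol synthesis genes have the largest shares called.

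In bone, 3 of 16 osteoblast genes tested rose, against 8.39% of all genes, while the genes of 2 osteocyte signals, Sost and Fgf23, fell. Ibsp, bone sialoprotein, was at 1054, 935 and 799 CPM at 0.5 h and 2018, 1621 and 2198 CPM at 24 h (log2 fold change 1.07 ± 0.17, adjusted p = 0.00171). Alpl, the phosphatase that permits mineralisation, was at 376, 379 and 357 CPM at 0.5 h and 692, 520.2 and 631 CPM at 24 h (log2 fold change 0.73 ± 0.12, adjusted p = 0.00174). The groups were separate in both, and the median of the 16 was 0.01. Bglap2, an osteocalcin gene, was at 738, 1112 and 544 CPM at 0.5 h and 309, 437 and 273 CPM at 24 h and did not pass (log2 fold change -1.23 ± 0.36, adjusted p = 0.056); it has a near-identical copy. Its adjusted p was 0.019 with robust off, 0.00862 by DESeq2, 0.00404 by limma-voom, 0.0111 with all 27 libraries, 0.0461 without the third 0.5 h library and 0.0321 without the second control. Without the second 0.5 h library 5 osteoblast genes were higher.

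Sost, which encodes sclerostin, the osteocyte inhibitor of Wnt signalling and bone formation, was at 44.4, 58.4 and 64.9 CPM at 0.5 h and 11.9, 18.4 and 15.4 CPM at 24 h (log2 fold change -1.88 ± 0.18, adjusted p = 0.000151). All 24 h libraries were below the 0.5 h libraries and the controls, 50.9, 43.8 and 40.2 CPM. Fgf23, the osteocyte hormone of phosphate balance, was at 7.198, 7.902 and 12.6 CPM at 0.5 h and 2.94, 1.41 and 3.23 CPM at 24 h (log2 fold change -1.87 ± 0.40, adjusted p = 0.0114). Pdpn, podoplanin of young osteocytes and stromal cells, was at 19.9, 20.7 and 15.5 CPM at 0.5 h and 52.3, 38 and 60.9 CPM at 24 h (log2 fold change 1.43 ± 0.17, adjusted p = 0.000349). Fgf23 thus fell and Pdpn rose with no overlap, while the other 6 osteocyte genes did not pass. Vdr, the vitamin D receptor, went from 216, 266 and 221 CPM to 78.9, 78.9 and 88 CPM (log2 fold change -1.52 ± 0.16, adjusted p = 0.000335), and Tnfrsf11b, osteoprotegerin, the decoy receptor that restrains osteoclasts, from 26.6, 28.1 and 17.02 CPM to 66.3, 40.5 and 53.8 CPM (log2 fold change 1.16 ± 0.21, adjusted p = 0.00616). Vdr at 24 h was also below its controls, 327, 204 and 300.3 CPM.

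Signalling genes of the Wnt and BMP pathways fell in 7 of 21 cases (median -0.30), against 7.74% of all genes, and the other 14 did not pass. Id2, a target of BMP signalling, was at 164, 170.2 and 147 CPM at 0.5 h and 90.3, 92.8 and 84.8 CPM at 24 h (log2 fold change -0.84 ± 0.12, adjusted p = 0.000803). Bmp6, a ligand, fell (log2 fold change -0.87 ± 0.16, adjusted p = 0.00418), and so did the BMP antagonists Nog (log2 fold change -0.95 ± 0.18, adjusted p = 0.00503) and Grem1 (log2 fold change -0.90 ± 0.19, adjusted p = 0.00791). The groups did not overlap in these 4 genes.

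Cartilage, tendon and periosteal genes were lower in 5 of 15 cases and Prg4 was higher (median -0.43). Cilp2, a cartilage matrix protein, was at 96.99, 74.4 and 80.8 CPM at 0.5 h and 33.9, 35.1 and 30.3 CPM at 24 h (log2 fold change -1.34 ± 0.11, adjusted p = 3.55e-05). Tnmd, tenomodulin of tendon, was at 30.1, 26.2 and 29.6 CPM at 0.5 h and 12.7, 12.5 and 12.3 CPM at 24 h (log2 fold change -1.20 ± 0.14, adjusted p = 0.000337). Chad, chondroadherin, was at 84.3, 64.2 and 81.1 CPM at 0.5 h and 34.2, 20.6 and 32.1 CPM at 24 h (log2 fold change -1.40 ± 0.18, adjusted p = 0.00119). Every 24 h library lay below every 0.5 h library in these 3; without the first or second 0.5 h library or the first 24 h library 3 were lower, and without the third control 2 were higher. Of 14 stromal proteases and inhibitors 4 rose and 3 fell, against 8.39% and 7.74% of all genes. Timp1, an inhibitor of metalloproteases, was at 82.5, 82.8 and 71.3 CPM at 0.5 h and 394, 328 and 464 CPM at 24 h (log2 fold change 2.33 ± 0.23, adjusted p = 0.000548), Mmp19 rose (log2 fold change 1.33 ± 0.22, adjusted p = 0.00395; 28.3% of its exon bases overlap with genes on the opposite strand) and Adamts5, an aggrecanase, fell (log2 fold change -0.89 ± 0.14, adjusted p = 0.00219). The lower count was 1 without the first 0.5 h library or the first or second 24 h library. Among 17 collagen genes Col18a1, the source of endostatin, was at 27.8, 24 and 24.7 CPM at 0.5 h and 82.2, 75.1 and 87.7 CPM at 24 h (log2 fold change 1.68 ± 0.19, adjusted p = 0.000725).

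Targets of p53, the factor that DNA damage stabilises, went both ways: of 18 tested, 7 rose and 3 fell, with a median of 0.35. Aen, an apoptosis nuclease, was at 24.5, 22.8 and 22.5 CPM at 0.5 h and 48.9, 43.6 and 53.97 CPM at 24 h (log2 fold change 1.07 ± 0.13, adjusted p = 0.000464). Eda2r, a death receptor, was at 2.94, 3.48 and 2.06 CPM at 0.5 h and 9.61, 6.55 and 11.8 CPM at 24 h (log2 fold change 1.72 ± 0.27, adjusted p = 0.00171). The groups were separate and the controls, at 18.8, 26.99 and 25.8 CPM for Aen, stood with the 0.5 h libraries. Gadd45a, a stress gene that p53 and other factors induce, fell (log2 fold change -1.22 ± 0.15, adjusted p = 0.000391), as did Trp53inp1 (log2 fold change -0.70 ± 0.07, adjusted p = 0.000151). Of 16 nucleotide excision repair genes, the pathway that removes UV lesions, 3 were higher, against 8.39% of all genes. Rad23b, a damage recognition partner, was at 107, 108 and 108 CPM at 0.5 h and 155, 151 and 174 CPM at 24 h (log2 fold change 0.57 ± 0.08, adjusted p = 0.000673), while the count was 1 without the first or the third 0.5 h library or the first or second 24 h library.

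Cholesterol synthesis was the list with the largest share of rises. Of its 20 genes 16 rose, against 8.39% of all genes, with a median of 0.67, and the summed level went from 465 to 529 CPM at 0.5 h to 737 to 832 at 24 h, with controls at 447 to 512. Hmgcs1, an early enzyme of the mevalonate pathway, was at 32.4, 29.8 and 26.2 CPM at 0.5 h and 69.9, 59.8 and 69.7 CPM at 24 h (log2 fold change 1.17 ± 0.11, adjusted p = 0.00011). Sqle, squalene epoxidase, was at 10.98, 10.4 and 11.5 CPM at 0.5 h and 27.5, 25.9 and 24.03 CPM at 24 h (log2 fold change 1.23 ± 0.14, adjusted p = 0.000315). All 24 h libraries were above all 0.5 h libraries in both. Cyp51, a sterol demethylase, was at 19.3, 13.98 and 14.9 CPM at 0.5 h and 48.8, 35.1 and 39.7 CPM at 24 h (log2 fold change 1.36 ± 0.15, adjusted p = 0.000215). The groups did not overlap in 16 of the 20 genes, against 37.6% of all genes. The count of genes that rose did not move by more than 1.5 times with any library left out. In 12 of the 20 with a RefSeq window, the sterol regulatory element TCACNCCAC, searched on both strands, was found in 1, Hmgcs1, against 1.22% of all genes with a window. It is shown in capitals because this family of genes is known to be driven by SREBP factors through such elements.
Hmgcs1, element 137 bases before the start, chr13:119690184-119690252, plus strand: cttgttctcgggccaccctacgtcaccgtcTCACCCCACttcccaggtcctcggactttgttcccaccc
The window of Hmgcs1 holds these letters, and no binding was measured.

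A part of the ribosomal protein genes rose, by small amounts. Of 75 ribosomal protein genes 26 were higher and 72 had positive fold changes (median 0.25), with a sum of 12600 to 14200 CPM at 0.5 h and 15100 to 17100 at 24 h. Rps2 was at 589.8, 637 and 591 CPM at 0.5 h and 1023, 821 and 1009 CPM at 24 h (log2 fold change 0.65 ± 0.10, adjusted p = 0.00184). The count was 9 and 13 without the first and second 0.5 h libraries and 10 and 12 without the first and the third 24 h libraries, 12 in the fit of 27 libraries and 41 by limma-voom. Of 73 nuclear genes of oxidative phosphorylation 11 were higher, against 8.39% of all genes (median 0.17), a count that fell to 3, 1 and 4 without the first, second and the third 0.5 h libraries, to 3 and 2 without the first and the third 24 h libraries and to 3 with all 27 libraries. Over all genes, the fifth with the shortest transcripts had a median log2 fold change of 0.0609 and the fifth with the longest -0.0608.

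Stress and metabolic genes went in both directions. Prdx1, a peroxidase, was at 114, 124 and 121 CPM at 0.5 h and 190.1, 186 and 198 CPM at 24 h (log2 fold change 0.68 ± 0.07, adjusted p = 0.000151). Txnrd1, thioredoxin reductase, was at 91.5, 86.5 and 90.97 CPM at 0.5 h and 144, 131 and 154 CPM at 24 h (log2 fold change 0.67 ± 0.09, adjusted p = 0.000611), and both are targets of the antioxidant factor NRF2. Gclc, the first enzyme of glutathione synthesis and another such target, fell from 59.02, 58.1 and 70.5 CPM to 36.6, 38.4 and 34.6 CPM (log2 fold change -0.78 ± 0.10, adjusted p = 0.000391). Psat1, an enzyme of serine synthesis, rose (log2 fold change 0.88 ± 0.14, adjusted p = 0.00165), and so did the mitochondrial chaperone Hspd1 (log2 fold change 0.54 ± 0.09, adjusted p = 0.00209). Lpl, the lipase that releases fatty acids at vessel walls, went from 280.4, 267 and 228 CPM to 104, 105 and 113 CPM (log2 fold change -1.27 ± 0.09, adjusted p = 2.56e-05). Its 24 h libraries were tightly grouped, far below the 0.5 h libraries and the controls, 273, 255 and 248 CPM.

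In vessels and nerve, Apln, an apelin peptide of growing endothelium, was at 2.58, 3.48 and 2.22 CPM at 0.5 h and 13.7, 12.8 and 17.6 CPM at 24 h (log2 fold change 2.41 ± 0.32, adjusted p = 0.000672). Mylk, myosin light chain kinase of smooth muscle, was at 477, 444 and 424 CPM at 0.5 h and 257, 258 and 234 CPM at 24 h (log2 fold change -0.84 ± 0.09, adjusted p = 0.000151). Apln rose and Mylk fell without overlap, and Acta2, smooth muscle actin, rose (log2 fold change 0.72 ± 0.13, adjusted p = 0.00319). Of 18 endothelial genes, among them Apln, 2 rose and 1 fell, against 8.39% and 7.74% of all genes, and 15 did not pass (median 0.13). Of 10 pericyte and smooth muscle genes, among them Mylk and Acta2, 1 rose, 2 fell and 7 did not pass (median 0.42). With 1 library left out, 2 to 3 endothelial genes were higher and 0 to 2 lower. Tubb3, a tubulin of neurons and of other growing cells, was at 5.58, 7.02 and 5.23 CPM at 0.5 h and 24.1, 18.5 and 20.4 CPM at 24 h (log2 fold change 1.82 ± 0.20, adjusted p = 0.000178). It was higher in every 24 h library, and it is 1 of 3 neuron genes called higher out of 12, where 1 was lower and the median was -0.18, opposite in sign to the sum. The higher count was 1 without any one 0.5 h library or the first 24 h library. Skin was scarcely present, with 11 epidermal genes summing to 14.2 to 15.6 CPM at 0.5 h and 12.7 to 14.6 at 24 h. None of the 7 tested passed, with 0 at an unadjusted p under 0.05 and 0 by DESeq2 or limma-voom.

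The same comparison was made in the meninges and the brain of the series, and its difference from skull was tested in a fit of all 27 libraries. Of 21500 genes, 112 (0.521%) differed between skull and meninges, 49 with the higher change in skull (0.228%) and 63 with the lower (0.293%). Between skull and brain 1285 (5.98%) differed, 657 with the higher change in skull (3.06%) and 628 with the lower (2.92%). Within those tissues 434 of 18542 genes (2.34%, of which 1.07% higher and 1.27% lower at 24 h) were called in meninges and 40 of 18172 (0.22%, of which 0.088% higher and 0.132% lower) in brain. The count against meninges was 44 and 50 without the second and the third 0.5 h skull libraries and 39, 193 and 27 without the first, second and the third 24 h skull libraries. That against brain was 753 and 752 without the first and the third 24 h skull libraries.

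Against meninges, Prg4 had the largest difference. On plain library totals its level in skull was 5.61 ± 3.47 CPM (SD, n = 3) at 0.5 h and 1170 ± 329 at 24 h. It was 48.4 ± 10.1 and 88.4 ± 23.7 in meninges and 4.16 ± 0.923 and 7.51 ± 0.991 in brain. The difference of the log2 fold changes, skull minus meninges, was 6.87, adjusted p = 2.32e-06. Arg1 had 27 counts at 0.5 h and 1548 at 24 h in skull, and 37 and 40 in meninges (5.76, adjusted p = 0.00301). At 0.5 h Prg4 was more abundant in meninges than in skull. Saa3 rose in both, from 3 counts to 195 in meninges, and its difference did not pass (3.73, adjusted p = 0.355).

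Sphkap, an anchor protein of kinase A in heart and nerve, fell in skull from 18.5 ± 4.55 to 3.27 ± 0.566 CPM and was at 94.8 ± 8.30 and 111 ± 11.2 in meninges (-2.67, adjusted p = 2.67e-07). Ntm, neurotrimin, an adhesion molecule of neurons, went from 5.47 ± 0.658 to 1.32 ± 0.196 CPM in skull against 26.4 ± 3.19 and 37.7 ± 8.77 in meninges (-2.51, adjusted p = 7.99e-06). In both, the level in skull fell while the mean in meninges was higher at 24 h than at 0.5 h, and both genes were more abundant in meninges. Of the 8 heme synthesis genes 4 had a lower change in skull than in meninges and 5 than in brain. The shares of all genes were 0.293% and 2.92%. Of the 20 cholesterol genes 10 and of the 75 ribosomal protein genes 12 had a higher change in skull than in brain. The share of all genes was 3.06%. Against meninges 0 genes of either list differed. Within meninges 1 cholesterol gene and 10 ribosomal protein genes were higher at 24 h, against 1.07% of all genes.

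Clock genes were compared between the tissues too. Dbp had a log2 fold change of 3.40 ± 0.29 in skull and 2.37 ± 0.38 in meninges, and Arntl -2.26 ± 0.12 and -1.40 ± 0.17. The difference from meninges was -0.86, adjusted p = 0.0361 for Arntl and 1.02, adjusted p = 0.384 for Dbp. Against brain it was -2.18, adjusted p = 2.63e-07 and 2.97, adjusted p = 0.000399. The direction of both was shared by skull and meninges. All 5 repressors that rose, Per2, Per3, Ciart, Nr1d2 and Bhlhe41, had a higher change in skull than in brain. Against meninges Bhlhe41 had a higher change in skull (1.01, adjusted p = 0.0438), and Per2, Per3, Ciart and Nr1d2 did not pass. In meninges 3 of the 6 genes of the clock repressor list were higher at 24 h, against 1.07% of all genes.

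**Figure D5:**
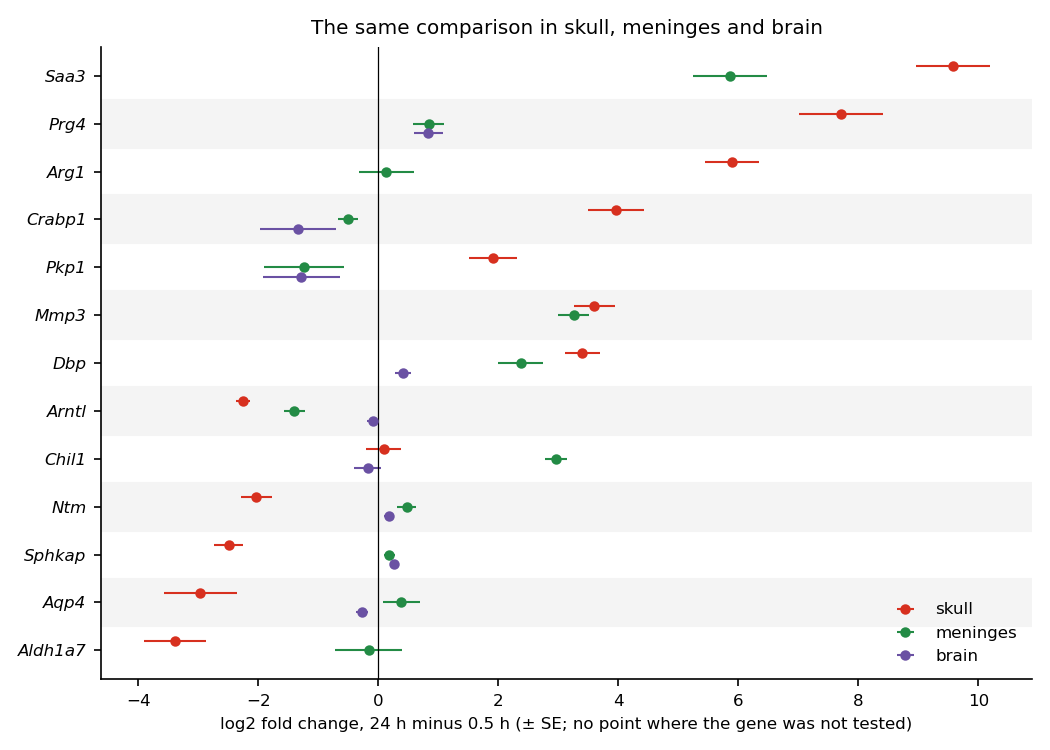
Log2 fold change, 24 h minus 0.5 h, with its SE as bars, for 13 genes in skull, meninges and brain, each from its own tissue's fit of 9 libraries, with no point where the gene was not tested. Prg4, Arg1 and Crabp1 have far larger values in skull than in meninges, Saa3, Mmp3 and Dbp are high in both, and Chil1 is high in meninges and near 0 in skull.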

How the data were processed

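Poly(A) RNA of 27 libraries was counted per gene symbol. The deposited counts are raw whole numbers, 37095 symbols by library. HISAT2 2.1.0 and mm10 were used, per the submitters' processing notes. How reads were counted, with which gene models and with or without strand, is not given in the sources used here. Libraries were grouped by their labels.

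Counts were tested with edgeR 4.0.16 (quasi-likelihood F test, robust, TMM scaling, filterByExpr with a minimum count of 10 and a minimum total of 15) in R 4.3.3, from the 9 skull libraries, with Benjamini-Hochberg adjustment over all 17426 tested genes at 0.05. Differences between tissues were tested as interaction terms in a fit of 27 libraries. Levels of single genes in skull alone are CPM on TMM-scaled totals. Sums over a list and levels compared between tissues are CPM on plain library totals. An SE is the size of the log2 fold change divided by the root of its F statistic. The exact 95% interval and the floor of 3 counts cover counting error only, as no molecular identifiers separate reads of 1 molecule. The 6 totals ran from 15960329 to 17838731 counts.

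Lists (60, with 1008 entries, 965 distinct genes) are described by counts and medians without a set test. The comparison, its lists and its tests were chosen with earlier results of these data known. Unmatched were 31 entries, including all 23 histone symbols, so histones have no value. Named genes are the 12 largest rises and 12 largest falls among called genes with at least 1 CPM on average, an established symbol and groups that do not overlap, up to 4 members per list by smallest p, and the 5 largest differences between tissues in each direction. Some genes these rules choose are not reported here. Clock, Per1 and members given only by name were added after their values were seen.

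Alternatives were no filter, RLE scaling, factors computed with haemoglobin and mitochondrial genes left out, robust off, DESeq2 1.42.0, limma-voom 3.58.1 with quality weights, 6 or 27 libraries, a replicate block and leaving out each library. The correction for GC content and transcript length was chosen after seeing the data. The test was tested on simulated data: for 24 h against 0.5 h in skull, with 17068 genes, 44% of genes changed 1.5-fold, 86% of those changed 2-fold and 96% of those changed 4-fold were called, and 6.36% of calls were false. For skull minus meninges (21076 genes) 46% and for skull minus brain (21072 genes) 58% of 2-fold differences were called. Coordinates and exon overlaps are from GENCODE M21; promoters are from RefSeq.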

Additional observations from a re-analysis of the deposited data

Results flagged for a closer look

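The change from 0.5 h to 24 h was compared between skull and meninges by a test of the difference itself. By the edgeR interaction term, at adjusted p under 0.05 over 21500 genes, 49 genes had the higher change in skull. Reported here are 4 of the largest. The differences of log2 fold changes, skull minus meninges, were 6.87 for Prg4, 5.76 for Arg1, 4.46 for Crabp1 and 3.15 for Pkp1, a plakophilin of desmosomes. Crabp1 had 16 and 245 counts in skull at 0.5 h and 24 h, and 2020 and 1406 in meninges. Pkp1 had 33 and 121 counts in skull and 63 and 26 in meninges, and its adjusted p lay between 0.0697 and 0.133 without any one of 5 of the 6 skull libraries, all except the second 24 h library.

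Among the 63 genes with the lower change in skull were Aqp4 (-3.35), Aldh1a7 (-3.24), Chil1 (-2.89), Sphkap (-2.67) and Ntm (-2.51). Chil1, a chitinase-like lectin, was at 58.1 ± 14.5 and 61.2 ± 16 CPM (SD, n = 3) in skull and at 16 ± 0.702 and 129 ± 24.4 CPM in meninges, so that the difference is a rise in meninges. Aqp4 was at 3.40 ± 2.02 and 0.423 ± 0.208 CPM in skull and 14 ± 3.23 and 18.9 ± 7.30 CPM in meninges. The call of Aqp4 ended without the first or the third 0.5 h library or the first or the third 24 h library (adjusted p up to 0.118), and that of Aldh1a7 without any skull library other than the second 24 h library (up to 0.131).

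Against brain, by the same test, 657 genes had the higher change in skull. Among the largest differences were 7.70 for Saa3, 6.87 for Prg4, 6.80 for Arg1, 5.29 for Crabp1 and 5.0 for Cd244a, a receptor of killer cells. Saa3 had 2 and 8 counts in brain, and its adjusted p was 0.0546 without the first and 0.0534 without the third 0.5 h skull library. Arg1 had 12 and 6 counts in brain. Cd244a had 5 and 0 counts in brain against 299 and 588 in skull, so its fitted difference depends on the prior count, and its call ended without the first (0.0508) or second (0.0543) 0.5 h library or the third 24 h library (0.0593).

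Among the 628 lower differences against brain were -6.97 for Gdf6, -6.20 for Tulp2, -5.59 for Cfhr2, -4.78 for Tg and -4.42 for Chst13. All 5 had 0 counts in brain at 0.5 h and 6 to 10 at 24 h, so these fitted values depend on the prior count and are no bounds. In skull the counts at 0.5 h and 24 h were 233 and 39 for Gdf6, a growth factor of the BMP family, 113 and 42 for Tulp2, 129 and 82 for Cfhr2, 510 and 345 for Tg and 499 and 634 for Chst13. The call of Gdf6 ended without the third 0.5 h (0.0522) or the first (0.0582) or the third (0.0537) 24 h library, and that of Cfhr2 without any one of 5 skull libraries, all except the third 0.5 h library (up to 0.0819). Cfhr2, Tg and Chst13 did not pass within skull. With no filter on low counts the calls against brain of Cd244a (0.0507), Cfhr2 (0.0574) and Chst13 (0.0527) and those against meninges of Pkp1 (0.0671) and Aldh1a7 (0.0719) ended too.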

How the results depend on the processing

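Of the 2811 calls in skull, RLE scaling gave 2800, factors computed with haemoglobin and mitochondrial genes left out 2792, no filter 2911, robust off 2765, DESeq2 3218, limma-voom 3815, the 6 libraries alone 3215, all 27 libraries 2908 and the correction for GC content and transcript length 3046. Leaving out 1 library gave 1428 to 3313 calls, 743 to 1657 of them higher and 685 to 1656 lower. Each of these fits has 1 replicate less. No gene called under any of these settings and in the fit reported changed sign. Replicate numbers as a block gave 2306 calls, and with it the differences of Pkp1 (0.128) and Aldh1a7 (0.0714) from meninges and of Cd244a (0.0993), Cfhr2 (0.0672) and Chst13 (0.0697) from brain were not called. Deviations of the 0.5 h and 24 h libraries with the same number correlated at 0.0555, -0.00703 and 0.0142. Whether libraries with the same number share a session or batch is not stated in the labels and was not tested. Of the differences from meninges, 112 became 55 with the replicate block, 395 by DESeq2 and 27 to 193 without 1 skull library; of those from brain, 1285 became 1943 by DESeq2 and 752 to 1264 without 1 skull library. Of the genes given with values, 2 changed sign, neither of which passed in skull under the fit reported. The Chil1 log2 fold change (0.09 ± 0.29) was -0.15 to 0.27 with 1 library left out, negative without the second 0.5 h (-0.03) and the third 24 h library. The Cry1 log2 fold change (-0.03 ± 0.15) was -0.0501 to 0.00315 with 1 library left out, positive without the third 24 h library, and 0.0231 when corrected for GC content and transcript length. Genes under about 1 CPM rest on few counts per group, and small changes can be missed. In the simulation, which changed 50 genes at each size, 44% of those changed 1.5-fold were called. In the skull data 16.1% of genes were called, with a median absolute log2 fold change of 0.575. The simulated share therefore does not carry over directly. The labels state neither the hour of collection, nor separate animals, nor strand.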
